A study of Mus musculus with 9 samples.

Results

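Windows at zinc finger genes are the stretches of the deposited signal table whose annotated gene has a name that begins with Zfp and a digit, with Zkscan or with Zscan. They were picked by gene name, and no measured value entered that rule, although earlier results of these data were known when it was set. There are 377 of them among the 17641 windows of the series, or 2.14%, and they name 340 genes. Of the 377 windows, 318 lie at most 1 kb from the start of the gene (84.4%, against 65.5% of all windows), and 59 lie further away. Of the genes, 31 hold more than 1 window, and 365 windows belong to protein-coding genes.

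The study profiled mouse pancreatic endocrine lines by chromatin immunoprecipitation and sequencing (ChIP-seq) with an antibody labelled H3K9me3, histone H3 trimethylated at lysine 9. The groups were betaTC3, an insulin-producing beta cell line with no treatment (n = 2), the glucagon-producing alphaTC1 line carrying a short hairpin RNA (shRNA) against the splicing factor gene Smndc1 for 5 days (n = 2), and alphaTC1 that received the empty vector and was kept for the same 5 days (n = 2). Each group also has 1 input sample. BetaTC3 differs from both alphaTC1 groups in the line and in not having been transduced, and these cannot be told apart. Separate cultures are not named in the labels, and the p-values therefore cover the spread among libraries, which may be technical.

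Most of these genes encode C2H2 zinc finger proteins, in which strings of fingers read DNA. Many carry a KRAB domain, which recruits the co-repressor Trim28 and, through it, the methyltransferase Setdb1 that writes H3K9me3, mostly at transposable elements and imprinted regions. The genes arose by tandem duplication and stand in clusters of near copies. In several cell types the 3′ exons of KRAB zinc finger genes are themselves known to carry H3K9me3, while their starts are active promoters. A minority of the names belong to other kinds of zinc finger protein, among them ribosome, RNA and spindle factors that most cells use.

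The signal was given per window and library in scaled reads, whole reads multiplied by a single factor per library. The libraries held 4530066 to 9924487 reads in windows, and the median zinc finger window held 256 to 503 reads. Zinc finger windows took 2.07 and 2.12% of those reads in betaTC3, 2.38 and 2.35% in the knockdown and 2.34 and 2.37% with the empty vector. Over the 377 windows, Pearson's r between log2 values was 0.981 to 0.993 within a group and 0.605 to 0.644 between betaTC3 and alphaTC1 libraries. Gcg, the glucagon gene, had 0 scaled reads in both betaTC3 libraries, against 340 to 421 in the alphaTC1 libraries, and Ins1, an insulin gene, had 354 and 314 in betaTC3, against at most 1.32 in alphaTC1. Of the alpha cell markers listed, 8 of 9 windows were lower in betaTC3 than with the empty vector and 1, at Ttr, was higher (130 and 123 in betaTC3, against at most 2.80 in alphaTC1). Of 10 beta cell marker windows 7 were higher and 3, at Nkx6-1 and Mafa, were not called, and of 2 at the delta cell hormone gene Sst 1 was higher. Most of the alpha and beta marker windows thus had more signal in the line that the gene marks, although H3K9me3 is known as a mark of silent chromatin, so the measure is called signal here. The window at Smndc1 itself, 715 bp from the gene start, had 1689 and 1653 scaled reads in betaTC3, 812 and 1126 in the knockdown and 1370 and 1378 with the empty vector. Signal at a gene start does not measure the gene's RNA and is no check of the knockdown.

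The promoters of 5 genes are printed because results turn on them: Zfp641 as a start that nearly lost its signal in betaTC3, Zfp92 and Zfp938 as starts with signal mainly in betaTC3, and Zfp970 and Zfp971 as a pair of near copies. The sequences are RefSeq's (GRCm38.p6), from 250 bases before to 50 bases after the gene start, 5′ to 3′ on the gene's strand. In the first 3, capitals mark CG dinucleotides. Zfp641 lies on the minus strand (chr15:98296112-98296411), Zfp92 on the plus strand (chrX:73410846-73411145) and Zfp938 on the minus strand (chr10:82241226-82241525).
Zfp641: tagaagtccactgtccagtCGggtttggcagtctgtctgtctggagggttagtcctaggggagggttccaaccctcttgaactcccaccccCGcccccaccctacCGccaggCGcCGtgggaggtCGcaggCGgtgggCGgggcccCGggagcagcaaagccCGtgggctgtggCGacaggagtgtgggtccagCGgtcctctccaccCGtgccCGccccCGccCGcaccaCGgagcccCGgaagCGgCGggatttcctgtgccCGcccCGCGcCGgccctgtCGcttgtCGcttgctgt
Zfp92: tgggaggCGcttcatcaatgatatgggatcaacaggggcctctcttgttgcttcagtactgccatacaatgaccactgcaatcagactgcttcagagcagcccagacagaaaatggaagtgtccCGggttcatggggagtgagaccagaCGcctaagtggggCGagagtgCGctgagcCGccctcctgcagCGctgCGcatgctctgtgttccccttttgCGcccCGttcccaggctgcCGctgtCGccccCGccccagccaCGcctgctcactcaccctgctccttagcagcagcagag
Zfp938: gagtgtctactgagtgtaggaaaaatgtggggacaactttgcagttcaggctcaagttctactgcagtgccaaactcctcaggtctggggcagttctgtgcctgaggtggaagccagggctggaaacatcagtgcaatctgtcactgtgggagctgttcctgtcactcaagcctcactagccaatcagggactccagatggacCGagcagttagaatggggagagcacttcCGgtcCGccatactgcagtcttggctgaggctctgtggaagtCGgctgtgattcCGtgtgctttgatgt
In the next pair, both on the plus strand, capitals mark the bases that differ over the 291 aligned. Zfp970 lies at chr2:177464492-177464791 and Zfp971 at chr2:178023034-178023333.
Zfp970: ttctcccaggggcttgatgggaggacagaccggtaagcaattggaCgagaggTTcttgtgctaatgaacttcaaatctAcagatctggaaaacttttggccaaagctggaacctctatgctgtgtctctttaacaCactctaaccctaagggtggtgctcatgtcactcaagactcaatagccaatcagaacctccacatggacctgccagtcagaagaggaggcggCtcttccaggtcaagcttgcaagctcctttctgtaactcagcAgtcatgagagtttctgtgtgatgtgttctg
Zfp971: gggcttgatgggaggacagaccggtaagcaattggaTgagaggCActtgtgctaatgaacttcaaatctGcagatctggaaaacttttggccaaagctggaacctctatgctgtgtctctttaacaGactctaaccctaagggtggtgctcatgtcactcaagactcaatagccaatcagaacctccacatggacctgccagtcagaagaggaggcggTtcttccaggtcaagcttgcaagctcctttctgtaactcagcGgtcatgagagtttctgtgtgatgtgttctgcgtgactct
These promoters differ widely in CG content. Zfp641 holds 26 CG dinucleotides and a GC content of 70.7%, Zfp92 holds 14 at 60.7%, Zfp938 holds 5 at 53.7%, Zfp970 holds 3 at 48.3% and Zfp971 holds 4 at 48.7%. Zfp970 and Zfp971 were identical at 284 of the 291 aligned bases (97.6%).

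Zinc finger windows more often had less signal in betaTC3 than in alphaTC1 with the empty vector. Of the 377 windows, 166 were lower in betaTC3 (44.0%) and 32 were higher (8.49%), while over all 17641 windows 33.2% were lower and 22.1% were higher (limma on log2(scaled reads + 1), Benjamini-Hochberg adjusted p below 0.05 over all windows). Their median log2 change was -0.37, against -0.13 for all windows. The libraries' scaling bears on the split: with every library centred on its own median, 164 zinc finger windows were lower and 70 higher, with a median of -0.19 for the members and 0.05 for all windows. Without empty-vector replicate 2, 107 were lower. Of the windows called, 99 of the 166 lower and 23 of the 32 higher kept their call under all 16 alternatives of scaling, test, filter and left-out library.

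At gene starts, 139 of 318 zinc finger windows were lower in betaTC3 (43.7%, against 29.4% of all 11562 gene-start windows) and 23 were higher (7.23%, against 17.1%). The median change was -0.37, against -0.11 for all gene-start windows. Most of the difference was moderate: 53 gene-start members lay below a log2 change of -1, 16 of them below -3. Another 19 lay above 1, 10 of them above 3. Over all 377 members 73 lay below -1 and 26 below -3, against 3653 and 1371 of all 17641 windows. Above 1 and 3 lay 28 and 13 members, against 3260 and 2086 of all windows. Large changes in either direction were thus no more frequent among members than over all windows. The median level of gene-start members was 385 scaled reads in betaTC3 (middle 50% from 195 to 668), 370 in the knockdown (227 to 575) and 479 with the empty vector (296 to 758). The libraries of a group differed by a median of 0.12 in betaTC3, 0.28 in the knockdown and 0.11 with the empty vector on the log2 scale. Among the highest, Zfp64, a regulator of the MLL promoter in human leukaemia, had 1087 and 1032 scaled reads in betaTC3, 1456 and 1786 in the knockdown and 2375 and 2382 with the empty vector (log2 change -1.17 ± 0.18, adjusted p = 0.00146), while Zfp866 had 2000 and 1772 in betaTC3, 770 and 1160 in the knockdown and 1444 and 1480 with the empty vector and was not called (adjusted p = 0.213).

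**Figure D1:**
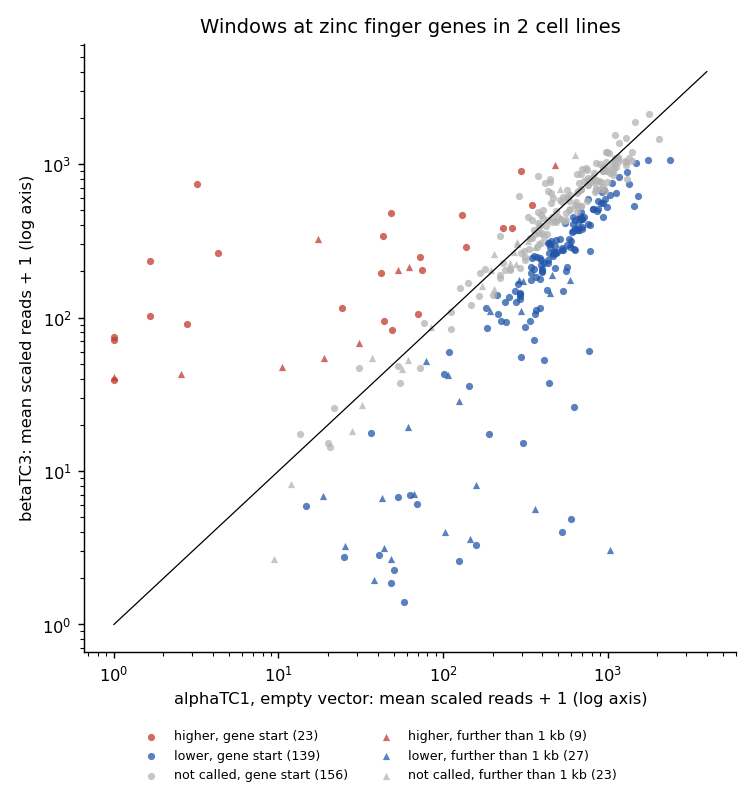
Mean level of the 377 windows in betaTC3 (vertical axis) and in alphaTC1 with the empty vector (horizontal axis), in scaled reads + 1 on log axes, with circles for the 318 gene-start windows and triangles for the 59 further away. Colours give the limma call in betaTC3, 32 higher and 166 lower, and the line marks equal levels.

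Among the 10 starts of smallest adjusted p that were lower in betaTC3, the signal left there differed widely, with 4 and 3 reads at Zfp870 and 77 and 60 at Zfp799. Zfp870, a member of the chromosome 17 cluster, had 3.19 and 2.85 scaled reads in betaTC3, 367 and 359 in the knockdown and 535 and 523 with the empty vector (chr17:32891188-32891588, log2 change -7.04 ± 0.17 SE, adjusted p = 5.41e-06). Zfp641 had 3.99 and 3.81 scaled reads in betaTC3, 463 and 513 in the knockdown and 588 and 604 with the empty vector (chr15:98295759-98296159, log2 change -6.93 ± 0.16, adjusted p = 5.41e-06). In both, every alphaTC1 library stood far above both betaTC3 libraries. Zfp521, a co-regulator of early neural and blood cell differentiation, had 15.2 and 13.3 scaled reads in betaTC3, 217 and 204 in the knockdown and 330 and 278 with the empty vector, and its other start window had 1.60 and 0.952 in betaTC3, against 45 to 54.2 in the 4 alphaTC1 libraries. Zfp697 had 22.4 and 27.6 scaled reads in betaTC3, 398 and 451 in the knockdown and 606 and 637 with the empty vector. Zfp799, next to Zfp870 in the same cluster, had 61.5 and 57.1 in betaTC3, 480 and 601 in the knockdown and 776 and 771 with the empty vector. In each of these windows both betaTC3 libraries lay below all 4 alphaTC1 libraries, as they did in 39.3% of zinc finger windows and 30.7% of all windows.

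The other 5 of the 10 had smaller changes. Zkscan4, a SCAN and KRAB protein gene on chromosome 13, had 13.6 and 19.0 scaled reads in betaTC3, 135 and 151 in the knockdown and 180 and 196 with the empty vector (log2 change -3.47 ± 0.23, adjusted p = 3.45e-05). Zfp709 had 42.3 and 30.5 in betaTC3, 295 and 435 in the knockdown and 432 and 447 with the empty vector. Zfp583 had 59.1 and 44.7 in betaTC3, 343 and 377 in the knockdown and 409 and 406 with the empty vector. Zkscan4 and Zfp709 were each the only window lower in betaTC3 in their clusters, of 7 and 4 windows. Zfp109 changed by -2.42 and Zfp354b, of the Zfp354 family first known from kidney, by -1.78. Outside the 10, Zfp454 changed by -5.76 and Zscan18 by -5.93. Both are the lowest of their clusters, with at most 4 reads in either betaTC3 library, against 87 to 167 reads for Zfp454 and 89 to 141 for Zscan18 in the alphaTC1 libraries.

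Fewer starts gained signal in betaTC3, and most of those with the smallest p were near 0 in alphaTC1. Zfp125 had 800 and 685 scaled reads in betaTC3, 0 in both knockdown libraries and 2.65 and 1.78 with the empty vector (chr12:20920751-20921151, log2 change 7.86 ± 0.28, adjusted p = 6.56e-06). Zkscan16, a KRAB and SCAN protein gene, had 230 and 234 in betaTC3, 0 in both knockdown libraries and 1.32 and 0 with the empty vector. That is 534 reads against 1 read, a ratio of 436 with an exact 95% counting interval of 78.0 to 17266 that covers counting error only. Zfp92, an X-linked KRAB gene known for its expression in pancreatic islets, had 98.2 and 81.8 scaled reads in betaTC3, 0 in both knockdown libraries and 2.65 and 0.888 with the empty vector, a ratio of reads of 56.9 (19.2 to 278). Zfp296, a partner of Klf4 in pluripotent cells, had 103 and 101 in betaTC3, 2.39 and 1.4 in the knockdown and 1.32 and 0 with the empty vector (ratio 192, 34.1 to 7616). Zfp182, also on the X chromosome, had 252 and 268 in betaTC3, 1.19 and 0 in the knockdown and 3.97 and 2.66 with the empty vector.

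Zfp804b and Zfp951 had no read in any of the 4 alphaTC1 libraries. Zfp804b had 70.3 and 71.4 scaled reads in betaTC3, at least 21.3-fold higher than the floor of 3 reads per empty-vector library. Zfp951 had 79.1 and 67.6 in betaTC3, at least 22.1-fold higher. The called peaks differ from these reads at Zfp951: all 6 lists had a peak within 1 kb of its RefSeq 5′ end, while 2 lists had one for Zfp804b. The start windows of Zfp951 and Zfp125 were not among those with a peak only in the betaTC3 lists. A second Zfp951 window, 31.8 kb into the gene, had 2.4 and 0.952 in betaTC3, 9.56 and 1.4 in the knockdown and 7.94 and 8.88 with the empty vector, and was not called. Zfp938 had 494 and 463 scaled reads in betaTC3, 38.2 and 54.5 in the knockdown and 50.3 and 44.4 with the empty vector, and so was present in both lines (log2 change 3.31 ± 0.22, adjusted p = 3.82e-05). Zfp612 changed by 1.83 and Zfp764 by 1.77, each with overlapping levels in the knockdown and the empty vector. Over all members, 10 windows had at most 3 reads with the empty vector (2.65%, against 8.62% of all windows), and 11 had at most 3 reads in betaTC3 (2.92%, against 3.87%).

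**Figure D2:**
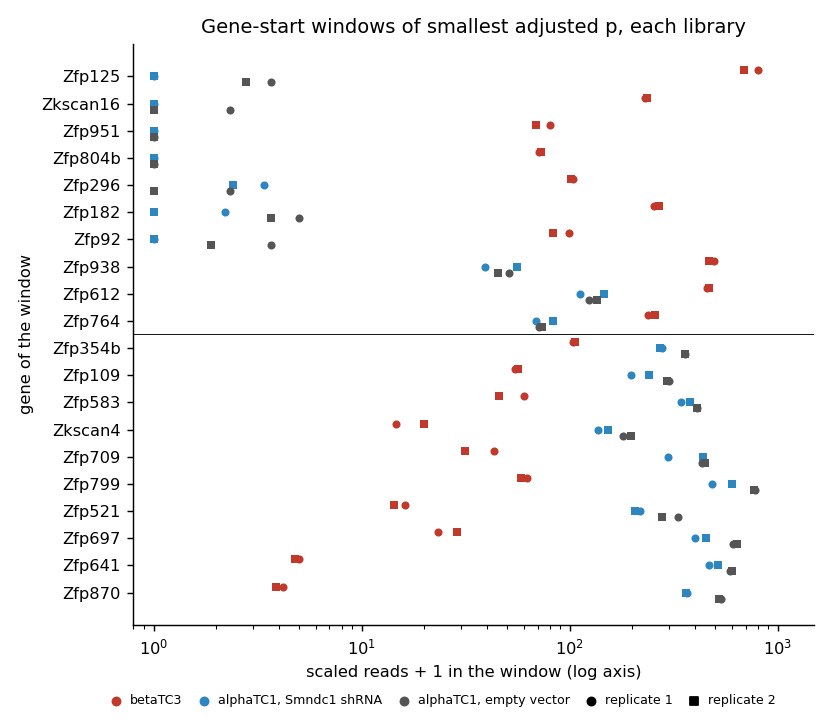
Scaled reads + 1 on a log axis in each of the 6 libraries for the 10 gene-start windows higher and the 10 lower in betaTC3 that had the smallest adjusted p. Circles are replicate 1 and squares replicate 2. In every row both betaTC3 libraries lie outside the range of the 4 alphaTC1 libraries.

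The 59 windows further than 1 kb had lower levels and a wider spread of change. Their median level was 109 scaled reads in betaTC3, 141 in the knockdown and 158 with the empty vector. Of them, 27 were lower in betaTC3 (45.8%, against 40.3% of all windows further than 1 kb) and 9 were higher (15.3%, against 31.5%), with a median change of -0.58, against -0.26. Of the 22 further than 10 kb, 11 were lower (50%, against 42.1% of all windows further than 10 kb) and 5 higher (22.7%, against 32.6%). Zfp217 alone holds 6 of the 27 lower windows, and all but the nearest lie further than 10 kb. The excess of lower windows over those shares of all windows rests on that gene.

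Zfp217, whose human counterpart is an oncogene amplified in breast cancer, accounts for 6 of the lower distal windows. All 6 lie within 75 kb on chromosome 2, the nearest 9.56 kb from the gene start, and each was lower in betaTC3. At the strongest (chr2:170130499-170130899, inside the gene) betaTC3 had 3.19 and 0.952 scaled reads, the knockdown 645 and 801 and the empty vector 1092 and 985 (log2 change -8.50 ± 0.35, adjusted p = 8.46e-06). The other 5 had at most 8.56 scaled reads in betaTC3, against 16.8 to 172 in alphaTC1. Zfp536, a repressor of neuronal differentiation, was lower in a window 2.44 kb from its start, with 6.39 and 2.85 in betaTC3, 222 and 233 in the knockdown and 357 and 366 with the empty vector.

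Distal windows that were higher in betaTC3 stood at other genes. A window 6.4 kb into Zfp773 had 313 and 335 scaled reads in betaTC3, 11.9 and 2.80 in the knockdown and 13.2 and 19.5 with the empty vector (log2 change 4.25 ± 0.56, adjusted p = 0.000796), while the window at the start of Zfp773 had 92.6 and 74.2 in betaTC3, 75.2 and 88.0 in the knockdown and 124 and 96.8 with the empty vector and was not called. Zfp831, 30.1 kb from its start, had 212 and 210 in betaTC3, 70.5 and 72.7 in the knockdown and 60.9 and 61.3 with the empty vector. Zfp184 changed by 1.96 and Zfp608 by 1.05. Of the 31 genes with more than 1 window, 10 had every window lower in betaTC3, none had every window higher, 8 had no window called, and 2 had a window in each direction. Those 2 were Zfp385a, with changes of -4.49 inside the gene and 0.73 at its start, and Zfp715, with -0.79 at its start and 1.20 at 30.3 kb. The higher call at Zfp385a was lost without any single library other than betaTC3 replicate 2, at changes of 0.48 to 0.78, and that of the distal Zfp715 window without either betaTC3 replicate (1.09 and 1.31) or empty-vector replicate 1 (0.79).

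Zinc finger windows were grouped into clusters, runs of at least 4 windows each at most 500 kb from the next. This gave 25 clusters with 201 windows. Of clustered windows, 117 were lower in betaTC3 (58.2%) and 9 higher (4.48%), with a median change of -0.65. Of the 176 windows outside clusters, 49 were lower (27.8%) and 23 higher (13.1%), with a median of -0.19. Of the 25, 1 holds only the 6 Zfp217 windows and another only 2 genes, Zscan20 and Zfp362. The other 23 span 66.0 to 2591 kb and hold 4 to 22 windows.

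Cluster by cluster, the medians of zinc finger windows followed those of the other gene-start windows around them and were mostly somewhat lower. The members' median lay below their neighbours' in 20 of the 23 clusters. In 17 of the 23 clusters the members' median lay within 0.25 of the median of gene-start windows within 1 Mb that are not members. Those neighbours were set apart by gene name only, so zinc finger genes with other names may be among them. The promoter of Zfp970, for one, shares runs of 50 bases with promoters of genes under Gm names. Over the 23 clusters the medians correlated with Pearson's r of 0.87 and Spearman's rho of 0.87. This is a description only, since all clusters share the same 4 libraries and some share neighbours. Both medians were near 0 on distal chromosome 7 from Zfp553 to Zfp668 (-0.02 for the 8 members and -0.01 for 62 neighbours), and both were low on chromosome 9 from Zfp560 to Zfp846 (-0.60 and -0.58), on chromosome 2 from Zfp120 to Zfp345 (-1.39 and -1.11) and on chromosome 2 from Zfp970 to Zfp931 (-1.05 and -0.91).

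**Figure D3:**
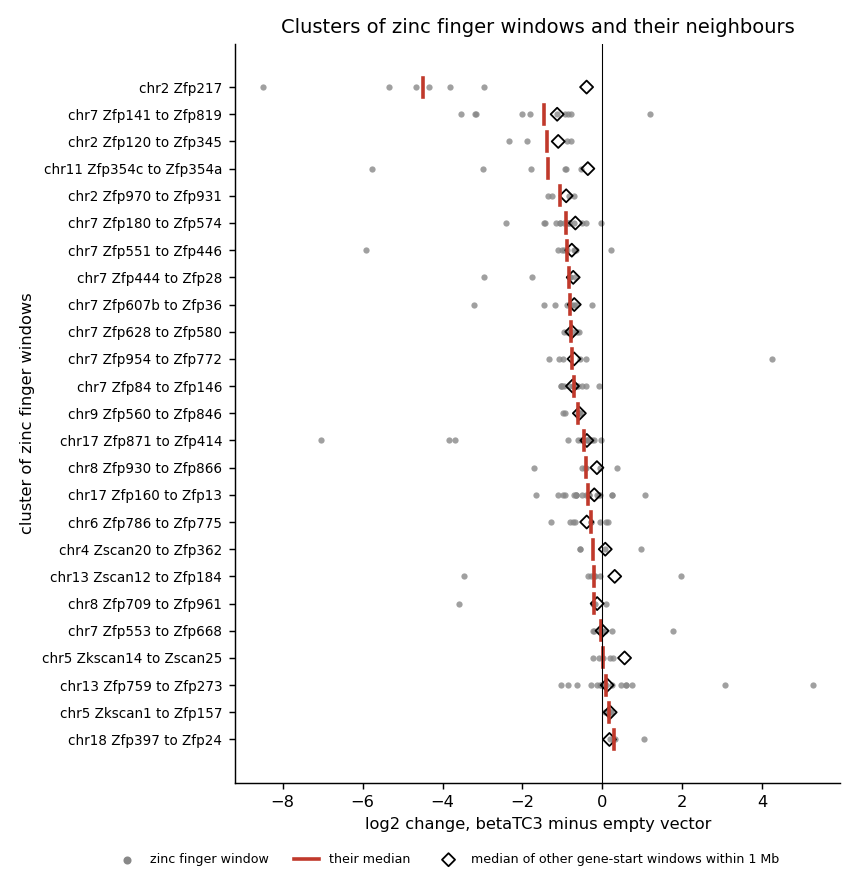
Log2 change in betaTC3 minus empty vector for each zinc finger window (grey points), the median of each of 25 clusters (red bars) and the median of the other gene-start windows within 1 Mb (diamonds). Clusters are named by chromosome and by their first and last gene, and run from the lowest median at the top to the highest. In 17 clusters the bar lies within 0.25 of the diamond.

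Chromosome 7 held the most zinc finger starts, 78 of 318. Along its proximal stretch, up to the last member there at 44.7 Mb, 61 of 67 zinc finger starts were lower in betaTC3 (91.0%) and 1 was higher, with a median change of -0.87, while 183 of 282 other starts there were lower (64.9%) and 30 higher, with a median of -0.73. On the distal stretch from 110 Mb, 1 of 11 zinc finger starts was lower and 1 higher, with a median of -0.03, against -0.25 for the 356 other starts beyond 80.1 Mb. Without chromosome 7, 77 of 240 zinc finger starts were lower (32.1%, against 27.4% of all gene-start windows off that chromosome) and 21 higher (8.75%, against 17.8%). The median was then -0.24, against -0.08.

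Most windows of the proximal clusters of chromosome 7 were lower in betaTC3. From Zfp141 to Zfp819 (chr7:42505304-43607444), 9 of 10 windows were lower in betaTC3, with a median change of -1.47 and a median level of 80.6 scaled reads in betaTC3, 148 in the knockdown and 209 with the empty vector. Zfp936 changed most there, with 6.39 and 3.81 in betaTC3, 63.3 and 82.5 in the knockdown and 62.2 and 73.7 with the empty vector. All 6 windows were lower from Zfp628 to Zfp580 and all 6 from Zfp444 to Zfp28. From Zfp180 to Zfp574, 12 of 14 were lower, with a median of -0.92. From Zfp551 to Zfp446, 8 of 9 were lower, and Zfp110, at 0.20, was the exception. From Zfp954 to Zfp772, 4 of 6 were lower and 1, the distal Zfp773 window, was higher.

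Single clusters differed in how their members changed. The Zfp354 cluster on chromosome 11 (chr11:50827360-51059545) had 5 of 6 windows lower in betaTC3 with a median of -1.36, against -0.36 for 25 neighbours and -0.65 for the other starts of chromosome 11. Its members ranged widely: Zfp354c, at 734 and 608 scaled reads in betaTC3, 586 and 801 in the knockdown and 1002 and 923 with the empty vector, was not called (adjusted p = 0.0554), while Zfp879 changed by -2.99 and Zfp454 by -5.76. The chromosome 13 cluster from Zscan12 to Zfp184 had 1 window lower and 1 higher, with a median of -0.22, against 0.31 for 23 neighbours. The chromosome 13 cluster from Zfp759 to Zfp273 had 4 of 15 windows higher in betaTC3, the most of any cluster, and 2 lower. Its 12 neighbours were much alike, with 4 higher and 2 lower, and the medians were 0.09 for the members and 0.12 for the neighbours. Among the 4 members that were higher, Zfp729b had 331 and 345 scaled reads in betaTC3, 41.8 and 30.7 in the knockdown and 27.8 and 56.8 with the empty vector. Zfp429 had 44.7 and 31.4 in betaTC3 and none in the other 4 libraries, at least 11.5-fold higher than the floor with the empty vector. The largest cluster, from Zfp160 to Zfp13 on chromosome 17 with 22 windows, had 10 lower and 1 higher, with a median of -0.37 against -0.20 for its neighbours.

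By the proteins' roles, most starts of genes with general cell functions had high signal that was not called between betaTC3 and the empty vector. Zfp207 acts in spindle assembly, Zfp598 marks collided ribosomes, Zfp622 matures the large ribosomal subunit, Zfp143 activates small nuclear RNA genes, and Zfp638 and Zfp326 bind RNA. Of the 10 windows at 9 such genes, 1 was higher in betaTC3 and none was lower than with the empty vector, with a median change of -0.01, while against the knockdown 4 were higher, at Zfp622, Zfp91, Zfp326 and distal Zfp148. The start of Zfp622 had 2266 and 1943 scaled reads in betaTC3, 1092 and 1521 in the knockdown and 1797 and 1784 with the empty vector, and the highest mean over the 6 libraries of any zinc finger window. The betaTC3 libraries differed at several of these windows. Zfp91, a ubiquitin ligase, had 1583 and 702 in betaTC3, 306 and 432 in the knockdown and 674 and 592 with the empty vector. Zfp326 had 1207 and 640 in betaTC3, 383 and 573 in the knockdown and 707 and 681 with the empty vector. The window that was higher lies 19.5 kb into Zfp148, at 42.3 and 40.9 scaled reads in betaTC3, 0 in both knockdown libraries and 1.32 and 1.78 with the empty vector.

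Of the 11 developmental regulators listed, 7 had windows, 10 in all, and 6 of these were lower in betaTC3 and 1 higher (33.2 and 22.1% of all windows were), with a median change of -1.97, against -0.13 for all windows. The lower ones were at Zfp521, Zfp536, Zfp503, Zfp804a and Zfp462. Zfp503, a regulator of striatal and limb development, had 193 and 157 scaled reads in betaTC3, 373 and 435 in the knockdown and 579 and 602 with the empty vector. Zfp804a and Zfp804b, near relatives, changed in opposite directions. The start of Zfp804a had 0.799 and 0 scaled reads in betaTC3, 43.0 and 67.1 in the knockdown and 68.8 and 44.4 with the empty vector, and its counted reads were 1 in betaTC3 and 102 with the empty vector (ratio 125, exact 95% counting interval 21.9 to 4978). The start of Zfp462, a chromatin regulator of neural fate, was not called at 652 and 726 in betaTC3, 532 and 637 in the knockdown and 645 and 736 with the empty vector, while a window 18.7 kb inside it changed by -2.18.

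Among genes that silence imprints and proviruses, Zfp445, which maintains imprints, had 220 and 205 scaled reads in betaTC3, 386 and 511 in the knockdown and 551 and 578 with the empty vector (log2 change -1.41, adjusted p = 0.00046). Zfp809, which targets the primer binding site of murine retroviruses, had 205 and 205 in betaTC3, 213 and 261 in the knockdown and 350 and 357 with the empty vector (-0.78, adjusted p = 0.00414). Zfp568, which represses a placental Igf2 promoter, was not called (-0.41, adjusted p = 0.0518). Zfp57, Zfp708 and Zfp932 had no window. Of 8 genes of pluripotency and the early embryo, Zfp281 and Zfp296 had a window, and Zfp42, Zfp352, Zscan10 and the listed Zscan4 copies had none. Of the CCCH proteins that destabilise messages with AU-rich elements, Zfp36 and Zfp36l2 were not called, and a window 3.28 kb into Zfp36l1 had 34.3 and 45.7 in betaTC3 and no read in the other 4 libraries, at least 12.1-fold higher than the floor with the empty vector. Genes named Zkscan or Zscan, whose proteins carry a SCAN dimerisation domain, had 23 windows, of which 7 were lower and 1 higher, against 33.2 and 22.1% of all windows, with a median of -0.22.

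Partners of KRAB proteins were set beside them as genes outside the zinc finger list. Of 14 listed, 10 had windows, 11 in all, of which 4 were lower in betaTC3 and 2 higher, close to the 33.2 and 22.1% of all windows, with a median change of -0.20, against -0.13. The lower windows were at Cbx1 and Cbx5, which encode heterochromatin proteins, and at Dnmt1 and Uhrf1, which maintain DNA methylation, and both higher windows were at Chd3. Trim28 had 1009 and 679 scaled reads in betaTC3, 532 and 738 in the knockdown and 982 and 918 with the empty vector and was not called (adjusted p = 0.52). Setdb1, Atf7ip, Cbx3 and Chd4 had no window.

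The knockdown of Smndc1 gave no call at a zinc finger window. By limma, 0 of 377 windows were called between the knockdown and the empty vector, and 0% of all windows. An unadjusted limma p below 0.05 was found at 161 of the 377, against 6169 of all 17641 windows. EdgeR, with TMM or the authors' scaling, and DESeq2 on the recovered reads likewise called 0 zinc finger windows. The fitted change was below 0 at 348 of 377 windows, with a median of -0.39, against -0.37 for all windows. When each library was centred on its median the medians became -0.02 and 0.00. The 23 clusters of more than 2 genes had medians from -0.58 to -0.27. Replicate 2 of the knockdown decides the count: without it, 168 zinc finger windows were called lower, along with 35.6% of all windows.

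**Figure D4:**
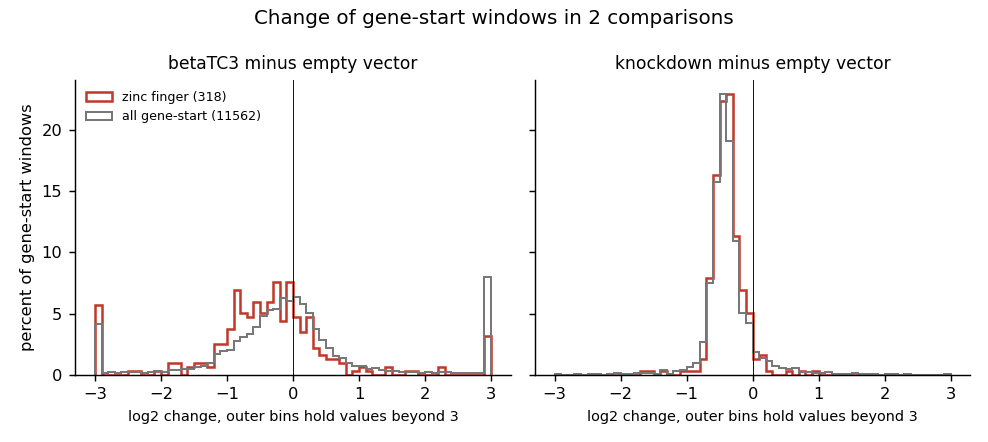
Distribution of the log2 change over the 318 zinc finger starts (red) and all 11562 gene-start windows (grey), in percent of windows per bin, with values beyond 3 placed in the outer bins. In betaTC3 minus empty vector the zinc finger starts have a median of -0.37 and all starts -0.11. In knockdown minus empty vector they have medians of -0.40 and -0.41.

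The zinc finger windows with the smallest p in that comparison had fitted changes of -0.73 to -0.61 and did not pass the test. The start of Zfp30 had 451 and 475 scaled reads in the knockdown, against 698 and 742 with the empty vector (log2 change -0.63, limma adjusted p = 0.117). The start of Zfp970, whose promoter is printed above, had 141 and 148 in the knockdown, against 237 and 245 (-0.73, adjusted p = 0.117). The windows at the starts of Zfp715, Zfp942 and Zfp599 had fitted changes of -0.61, -0.69 and -0.61 at the same adjusted p. In these 5 windows both knockdown libraries lay below both empty-vector libraries, as they did in 77.7% of zinc finger windows and 64.6% of all windows. In the other direction, the distal Zfp715 window had 54.9 and 64.3 in the knockdown, against 21.2 and 38.2 with the empty vector (1.04, adjusted p = 0.119), and the start of Zfp385a had 75.2 and 62.9, against 46.3 and 49.7 (0.51, adjusted p = 0.172). Zfp831, Zfp764 and Zfp395 had fitted changes of 0.23, 0.07 and 0.10, with limma adjusted p of 0.319 to 0.82.

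Set against the knockdown instead, betaTC3 had 103 zinc finger windows lower (27.3%, against 24.0% of all windows) and 87 higher (23.1%, against 36.6%). The median change was 0.01, against 0.23 for all windows. With centred libraries, 165 were lower and 83 higher. Without betaTC3 replicate 1 the counts were 64 lower and 33 higher, without betaTC3 replicate 2 they were 69 and 62, and without knockdown replicate 1 they were 118 and 57. Without knockdown replicate 2 the balance turned, with 79 lower and 112 higher. Leaving out either empty-vector replicate, which changes only the shared estimate of spread, gave 76 lower and 57 higher. This comparison shares the betaTC3 libraries with the first. Zfp870 changed by -6.50 against the knockdown and -7.04 against the empty vector, Zfp641 by -6.64 and -6.93, and Zfp938 by 3.36 and 3.31.

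Called peaks, made by the authors for each library against its group's input according to the peak names, stood at the starts of zinc finger genes and hardly at their ends. A zinc finger window overlapped a peak by at least 1 bp in 91.5 and 91.3% of cases in betaTC3, 97.3 and 96.3% in the knockdown and 96.3 and 97.3% with the empty vector, against 81.1 to 84.6% of all windows. The windows are labelled as a peak set, and of all 17641 only 1, not a member, had a peak in no list. Overlap with a peak in some list was thus fixed by how the windows were made, and only the pattern over lists varies. All 6 lists had a peak at 330 of the 377 windows (87.5%, against 67.1% of all windows). Only the betaTC3 lists had one at 8 windows (2.12%, against 11.9%), and only the alphaTC1 lists at 26 (6.90%, against 9.60%). Gene-start members lay closer to all gene-start windows. They overlapped a peak in 94.7 and 94.3% of cases in betaTC3, against 93.1 and 93.2%, and in 97.5 to 98.1% in alphaTC1, against 90.3 to 91.3%. All 6 lists had a peak at 91.8% of them, against 83.8%, only the betaTC3 lists at 1.89%, against 7.34%, and only the alphaTC1 lists at 4.72%, against 4.58%. The median peak at a gene-start member was 1295 and 1352 bp wide in betaTC3, 1639 and 1530 bp in the knockdown and 1472 and 1568 bp with the empty vector. The centre of a zinc finger start window lay at a median of 212.5 bp downstream of the start, against 255 bp for all gene-start windows.

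RefSeq lists 351 protein-coding zinc finger genes by the same names, 275 of which had a window. A peak lay within 1 kb of the 5′ end in 77.2 and 77.5% of them in betaTC3, 80.6 and 79.8% in the knockdown and 79.8 and 80.1% with the empty vector, against 50.0 to 51.7% of all 17492 protein-coding genes. At the 3′ end, where KRAB zinc finger genes are known to carry H3K9me3, 4 of 309 genes had a peak within 1 kb in each betaTC3 and knockdown library, and 4 and 5 with the empty vector. These are 1.29 to 1.62%, against 1.21 to 1.39% of 12034 genes. Genes were counted where longer than 5 kb and with a 3′ end over 3 kb from any gene start. The peak lists are labelled narrow, and whether broad signal at 3′ ends escaped them was not tested.

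**Figure D5:**
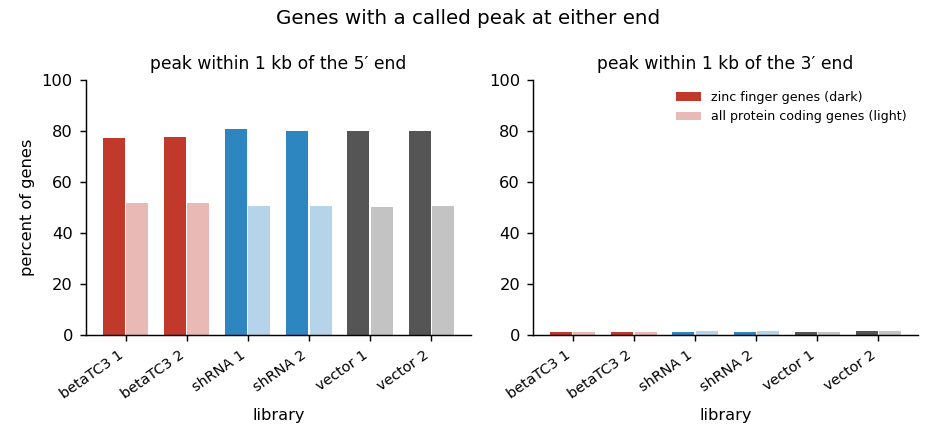
Percent of genes with a called peak within 1 kb of the 5′ end (left) and of the 3′ end (right) in each library, for zinc finger genes (dark bars) and all protein-coding genes (light bars). At the 5′ end zinc finger genes reach 77.2 to 80.6% and all genes 50.0 to 51.7%, and at the 3′ end both stay below 1.63%.

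No list had a peak within 1 kb of the RefSeq 5′ end of 63 zinc finger genes (17.9%, against 45.4% of all protein-coding genes). Some of these stood together. All 5 genes from Zfp980 to Zfp993 and 6 of 7 from Zfp988 to Zfp933 on chromosome 4 had none, as did all 4 copies of Zscan4, a family expressed in the early embryo. From Zfp640 to Zfp273 on chromosome 13, 8 of 21 had none. All 9 genes from Zfp786 to Zfp775 on chromosome 6 and all 5 from Zfp560 to Zfp846 on chromosome 9 had a peak in all 6 lists. The counts go by the gene ends in RefSeq and not by the starts in the deposited annotation. Zfp759, Zfp595, Zfp874b and Zfp984 have start windows by that annotation and still count among the 63. So do Zfp229, Zfp235, Zfp109, Zfp93, Zfp61, Zfp428, Zfp59, Zfp790, Zkscan2 and Zfp558. Zscan18 and Zfp804a also count among the 63, and their start windows had a peak in every alphaTC1 list and in no betaTC3 list. Every zinc finger start window had a peak in some list, so the 63 include genes with a peak near a start by that annotation.

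The promoters of zinc finger windows were poorer in CG than those of other starts with signal. RefSeq held a promoter within 1 kb of the window centre for 254 of the 318 gene-start members. Their median was 15 CG dinucleotides in 300 bases and a GC content of 55.5%, against 23 and 62.7% for the 8215 promoters at any gene-start window and 7 and 52.7% for all 32851 RefSeq promoters. Members lower in betaTC3 had a median of 13 CG dinucleotides (118 promoters), members higher 13 (16 promoters) and members not called 17 (120 promoters). Across the 254 promoters, CG number and mean log2 level correlated with Spearman's rho of 0.33, against 0.26 over all 8215, as a description of promoters measured in the same libraries.

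Short motifs were searched on both strands as exact letters, each by itself, so that matches of different motifs may overlap. The ETS core CCGGAAG was found in 24.8% of member promoters, against 18.8% of promoters at any gene-start window and 8.86% of all promoters. The SP1 box GGGCGG was found in 45.3%, against 70.9 and 35.7%, and CCAAT in 47.6%, against 39.5 and 37.4%. The NRF1 motif GCGCATGC was found in 7.09%, against 5.94 and 2.71%, the YY1 motif AAGATGG in 9.84%, against 7.15 and 6.34%, TATAAA in 5.51%, against 5.95 and 13.6%, and the CRE motif TGACGTCA in 4.33%, against 3.49 and 1.79%. Among the promoters printed, Zfp641 and Zfp938 hold the ETS core and Zfp92 does not. A match describes letters in the promoter, which need not overlap the window (by 48 bases at Zfp641), and is not a bound site.

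Near copies limit what a window can say about a single gene. Of the 254 member promoters, 25 share a run of at least 50 bases, the length of the reads, with a RefSeq promoter elsewhere in the genome. Of these 25, 16 were called lower or higher in betaTC3, as were 198 of all 377 members and 55.2% of all windows. In 3 of them, Zfp955a, Zfp955b and Zfp970, every run of 50 bases is shared, Zfp970 with promoters of 27 other genes. Reads from such runs cannot be assigned to a single gene, so the value of a window that holds them is uncertain. The promoter of Zfp970 overlaps its window by 56 bases. Those of Zfp955a and Zfp955b do not overlap their windows, whose own sequence was not searched. The sources name no rule for reads with several matches. Zfp971, which is identical to Zfp970 at 97.6% of aligned bases, had 542 and 569 scaled reads in betaTC3, 618 and 674 in the knockdown and 900 and 909 with the empty vector, while Zfp970 had 95 and 90.4 in betaTC3, 141 and 148 in the knockdown and 237 and 245 with the empty vector. Both were lower in betaTC3, by -0.70 and -1.37. Zfp951, higher in betaTC3, shares 28.3% of its runs with Zfp33b.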

How the data were processed

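ChIP-seq libraries were sequenced as 50 bp single reads, per the labels' protocols, and mm10 (GRCm38), MACS2 2.2.7.1, Bowtie2 2.4.1 and Picard 2.19.2 are named in the submitters' processing notes. The deposited window table holds 1 normalised signal (coverage) value per library. Every value is a whole number of reads times 1 step for its library, to within 0.001, and is called scaled reads. The sources used here give neither the origin of the steps nor whether input reads were subtracted, in which case a 0 would stand for a level at or under the input. In the deposited peak lists the authors give each peak a fold (ratio) over background, a score and −log10 p- and q-values. Only the −log10 q-value was used, to take the stronger part of a list. Inputs entered through the authors' peak calls.

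With limma 3.58.1 in R 4.3.3, log2(scaled reads + 1) of all 6 libraries was fitted with a mean per group and an intensity trend, with Benjamini-Hochberg adjustment over 17641 windows. Alternatives used edgeR 4.0.16 and DESeq2 1.42.0 on the recovered reads. A group without reads was set at 3 reads per library. Intervals and floors cover counting error only, as PCR copies without molecular identifiers may count 1 molecule repeatedly. Tables and figures used Python 3.11.15, pandas 2.3.3, numpy 2.4.6 and matplotlib 3.10.9.

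The members and lists were chosen with earlier results of these data known. Windows were named by rule. For betaTC3 minus empty vector these were the 10 higher and 10 lower gene-start windows, and the 4 of each further than 1 kb, of smallest adjusted p with a group mean of at least 50. For the knockdown they were the 5 of smallest p in each direction with a mean of at least 50 in the knockdown or the empty vector. The windows of highest level, the extremes of each cluster and the role lists were added. Zfp879, Zfp936, Zfp429, Zfp971, Zfp955a and Zfp955b were chosen after their values were seen.

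The coordinates are the deposited table's. Distances to the gene start are the authors'. Promoters were matched by symbol to RefSeq (GRCm38.p6). As a check of pairing, deviations from the group means were correlated between libraries of equal number, which gave 0.085 for betaTC3 and empty vector, -0.0079 for knockdown and empty vector and -0.176 for betaTC3 and knockdown, and the numbers pair no libraries. Protein sequences and a genome were not used here.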

Additional observations from a re-analysis of the deposited data

How the results depend on the processing

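The share of zinc finger windows higher in betaTC3 depends on how the libraries are scaled. Against the empty vector, 32 windows were higher, and 70 were with libraries centred on their medians, 72 with edgeR and TMM and 74 with DESeq2. Leaving out single libraries gave 24 to 37 higher and 107 to 186 lower, against 166 lower with all, the lowest without empty-vector replicate 2. With centring the median of all windows became 0.05, against -0.13, in this comparison and 0.00, against -0.37, for the knockdown minus the empty vector. For the knockdown minus the empty vector, 0 windows were lower, 3 were at a pseudocount of 0.1, all near the floor, 2 without an intensity trend, and 0 to 168 without a single library, the most without knockdown replicate 2. For betaTC3 minus the knockdown, 103 windows were lower, against 165 with centred libraries, 163 with edgeR and TMM and 64 to 118 without a single library. There 87 were higher, against 54 when only the groups compared were fitted and 33 to 112 without a single library. The lowest of both came without betaTC3 replicate 1. With a replicate block the counts were 31 higher and 157 lower against the empty vector, 0 for the knockdown, and 75 higher and 94 lower for betaTC3 minus the knockdown. A crossed block, chosen after seeing the data, gave 103 higher and 107 lower in the last.

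No call at the 65 windows followed one by one reversed under any alternative run. Calls at Zfp385a, Zfp263 and the distal Zfp715 window were lost in some, and the cause was not tested. With a gap of 250 kb there were 24 clusters, and with 1000 kb 27. A group at 0 reads allows only a bound.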
